A study of Sparus aurata with 6 samples.

Results

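In gilthead sea bream (Sparus aurata), 53 well-detected skin transcripts gave a lower signal in fish fed the SDPP diet than in the control group on every one of their probes. A transcript here is a name on the array, either a single expressed sequence tag (EST, one sequencing read of a cDNA clone) or a contig assembled from several of them. The array held 15156 names, of which 4434 had a probe well above background on all 6 arrays and 1961 had at least 2 such probes. A name was selected on the comparison of the diets itself: each of its well-detected probes had the highest SDPP pool below the lowest control pool, and the mean difference over its probes, SDPP minus control, was at most -0.4 on the log2 scale. The 53 names, 2.7% of the 1961, are therefore described by the very values that chose them, and no test is given for any of them.

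The SDPP group comprised 3 pools of skin RNA from juveniles (88.2 ± 1.6 g) fed for 95 days a diet in which 3% spray-dried porcine plasma took the place of fishmeal. The control group comprised 3 pools from juveniles (82.7 ± 3.2 g) that received the fishmeal diet without plasma for the same time. Both weights are the final means of each diet in the trial (± SD, n = 4), and not those of the pooled fish alone. Every pool combined RNA from 4 fish, 1 from each of the 4 tanks of its diet, and was hybridized to a single-colour array. The spread between pools is thus smaller than that between single fish, and tanks cannot be separated.

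Fish skin is a living mucosa. Its epidermis consists of non-keratinized epithelial cells among which mucous cells secrete the mucus layer, and it lies on a dermis of collagen, scales, pigment cells and vessels. Spray-dried plasma is a powder of blood proteins, rich in albumin and immunoglobulins, that is used as a feed ingredient. In such whole tissue, fewer cells of a type and less RNA per cell cannot be told apart. None of the 15156 names matched the 32006 genes of the reference table, so the members are given by their clone or contig names, without a gene or a role, and the tissue was not checked against marker genes. Their probe sequences are not printed here.

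Signals are log2 intensities relative to the 75th percentile of the array, so 0 is that percentile and a difference of -1 is a 2-fold lower signal. The 75th percentile ranged from 1829 to 2345 intensity units on the SDPP arrays and from 1419 to 2475 on the control arrays. Between 36.7% and 52.7% of the spots were well above background on the SDPP arrays, against 28.2% to 50.1% on the control arrays, with the lowest share in control pool 2. That pool also had 382 spots flagged as outliers, against 97 to 156 in the other pools. No spot was saturated (0 over the 6 arrays). The 6 arrays came from 5 slides, with every SDPP array in position 3 of its slide and every control array in position 2. Diet and position therefore cannot be told apart. Slide and scan order also went largely with diet. SDPP pools 1 and 2 were on slides 1 and 2, control pools 2 and 3 on slides 4 and 5. Only slide 3 held both diets, and the slides were scanned in this order.

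The members were the far end of a wide spread of differences. Over the 1961 names with at least 2 well-detected probes, the median difference was -0.0044 (quartiles -0.19 and 0.19, range -1.73 to 1.38). The pools did not overlap in 86 of these names (4.39%), with SDPP lower on all probes, and in 33 of them the fall was smaller than the limit. In the other direction, 194 of the same 1961 names had SDPP higher on all probes without overlap, so that direction was the more common in the reported setting. Conversely, 161 names had a mean difference of at most -0.4, and in 108 of them the pools overlapped on at least 1 probe. With the limit turned round as well, 98 of the 1961 names met it on the higher side, against the 53 members on the lower side. The limma fit took in all 13059 probes that stood clear of background on 3 or more arrays. At an unadjusted limma p of 0.05, 950 probes (7.27%) were lower in SDPP and 970 higher, and 0 passed after Benjamini-Hochberg adjustment (smallest adjusted p = 0.283). The unpaired test named in the paper's methods was rerun here on the same 13059 probes, with the processing used here. It gave 655 lower and 1001 higher probes at the same unadjusted level, and 0 after adjustment. These are not the paper's own counts, which came from genes that had passed its own filter by expression.

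**Figure D1:**
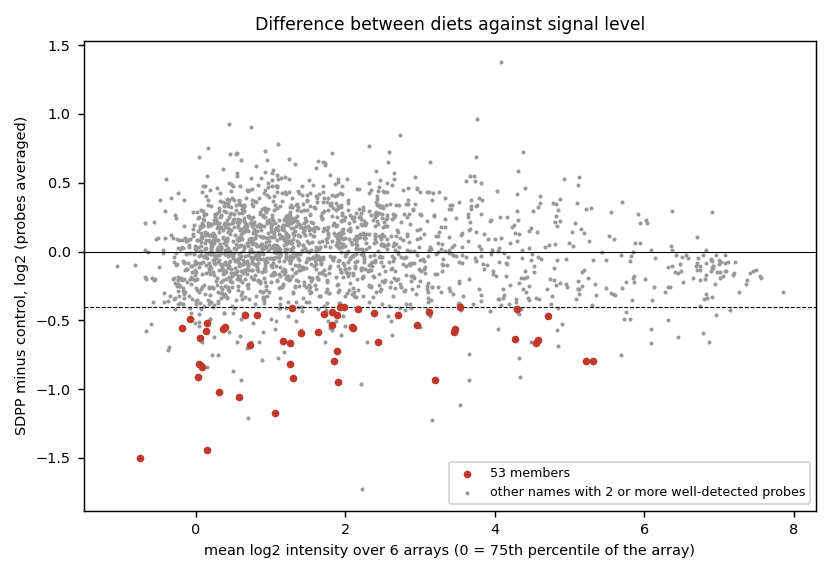
Difference between diets (SDPP minus control, log2, vertical) against the mean log2 signal over the 6 arrays (horizontal, 0 is the 75th percentile of the array) for the 53 members in red and the other names with at least 2 well-detected probes in grey. The members lie below the dashed limit of -0.4, between -1.50 and -0.40, together with grey names on which at least 1 probe overlapped between diets.

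Most of the 53 falls were modest. The median difference was -0.58 (quartiles -0.80 and -0.46), which corresponds to a signal 1.5-fold lower in SDPP, or 66.8% of the control signal. At least a 2-fold fall was seen in 5 members and at least a 1.5-fold fall in 26. The separation between diets was narrow beside the spread within them. The gap between the highest SDPP pool and the lowest control pool ranged from 0.03 to 0.80 with a median of 0.20, whereas the pooled SD of the pools had a median of 0.23. The gap exceeded the pooled SD of the same name in 22 members.

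The deepest fall belonged to Contig1072, whose signal was -0.78, -1.89 and -1.80 in SDPP pools 1 to 3, against -0.13, 0.25 and -0.11 in control pools 1 to 3. The difference was -1.50, with means of -1.49 ± 0.62 in SDPP and 0.0056 ± 0.21 in control (SD, n = 3 each). SDPP pool 1 stood well above the other SDPP pools, but still below all control pools. It was also the dimmest member, with a level under the 75th percentile of the array. On 1 array its signal lay 0.23 below the dimmest spot called well above background, and the name left the set when every spot of a probe had to be well above background.

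Next came cDN13P0004G16.F.ab1, with the widest separation of the set. Its signal was -0.35, -0.44 and -0.93 in the SDPP pools and 0.76, 1.40 and 0.44 in the control pools, a difference of -1.44 (36.8% of control). The gap between the diets was 0.80, although control pools 2 and 3 lay almost 1 unit apart.

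The other members with at least a 2-fold fall were cDN09P0006D12.F.ab1, Seabream_2006-01-03-CL3660Contig1 and Contig864. cDN09P0006D12.F.ab1 measured 0.34, 1.05 and 0.04 in SDPP pools, against 1.45, 2.20 and 1.29 in control pools (difference -1.17). Seabream_2006-01-03-CL3660Contig1 measured 0.15, 0.31 and -0.32 in SDPP pools and 1.19, 1.48 and 0.64 in control pools (difference -1.06). For Contig864 the signal was 0.06, -0.05 and -0.62 in SDPP pools and 0.44, 1.49 and 0.51 in control pools (difference -1.02). In all 3 the lowest SDPP value was pool 3 and the highest control value was pool 2, and in Contig864 control pool 2 stood nearly 1 unit above the other control pools.

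Just under a 2-fold fall, 4 clone names followed. cDN14P0001A07.F.ab1 gave 1.70, 1.92 and 0.66 in SDPP pools, against 2.17, 2.95 and 2.00 in control pools (difference -0.95). It had the largest spread within diets of all members (pooled SD 0.60), its diets were separated by only 0.08, and without SDPP pool 3 its difference was -0.57. cDN06P0006L22.F.ab1 gave 2.82, 3.12 and 2.27 in SDPP pools and 3.54, 4.20 and 3.26 in control pools (difference -0.93, gap 0.15). cDN13P0005G18.F.ab1 gave -0.34, -0.24 and -0.72 in SDPP pools and 0.17, 1.03 and 0.24 in control pools (difference -0.91). Here the diets lay 0.41 apart, with the control mean raised by pool 2. The remaining clone, cDN07P0003J02.F.ab1, had 1.26, 0.90 and 0.35 in SDPP pools and 1.66, 2.12 and 1.49 in control pools (difference -0.92). This average hid a disagreement in size between its probes, described with the probe values.

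The averaged SDPP pools lay close together in some members, among them the 2 described next. cDN09P0004I07.F.ab1 measured -0.35, -0.44 and -0.32 in SDPP pools, against 0.36, 0.80 and 0.19 in control pools (difference -0.82, SDPP SD 0.06). Contig3458 measured 0.76, 0.92 and 0.86 in SDPP pools and 1.51, 1.90 and 1.57 in control pools (difference -0.81, SDPP SD 0.08). The gaps between diets were 0.51 and 0.60. The close SDPP values of cDN09P0004I07.F.ab1 came from averaging probes that disagreed, since SDPP pool 1 was the lowest SDPP pool on one probe and the highest on another. Seabream_2006-01-03-CL2175Contig1 had widely spread SDPP pools. Its signal was -0.02, -0.18 and -0.82 in SDPP pools, against 0.59, 0.66 and 0.24 in control pools (difference -0.84), with SDPP pool 3 well apart from the other SDPP pools.

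The remaining names among the 15 deepest falls were cDN13P0001P04.F.ab1, cDN06P0004F12.F.ab1 and cDN13P0005G10.F.ab1. cDN13P0001P04.F.ab1 measured 4.85, 5.04 and 4.57 in SDPP pools, against 5.44, 6.26 and 5.16 in control pools (difference -0.80). cDN06P0004F12.F.ab1 measured 4.98, 5.18 and 4.59 in SDPP pools and 5.68, 6.26 and 5.21 in control pools (difference -0.80). These were the brightest members, and their pools stood in the same order, but SDPP pool 2 lay only 0.12 and 0.03 below control pool 3. Without control pool 2 the difference was -0.48 for cDN13P0001P04.F.ab1 and -0.53 for cDN06P0004F12.F.ab1. cDN13P0005G10.F.ab1 measured 1.66, 1.57 and 1.11 in SDPP pools and 2.16, 2.67 and 1.89 in control pools (difference -0.79).

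A further 3 members were among the 5 brightest. Brightness depends on the probe as well as on the amount of RNA, so it was used to judge detection, not to rank transcripts. Contig1188 measured 4.25, 4.34 and 4.06 in SDPP pools, against 4.85, 5.18 and 4.61 in control pools (difference -0.66). Contig1423 measured 4.34, 4.30 and 4.12 in SDPP pools and 4.79, 5.09 and 4.81 in control pools (difference -0.65). Contig1423 had the clearer separation, with a gap of 0.45 against a pooled SD of 0.14. Contig2050 measured 4.81, 4.28 and 4.34 in SDPP pools and 4.96, 5.05 and 4.84 in control pools (difference -0.47), and its SDPP pool 1 came within 0.03 of the lowest control pool.

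The other 32 members had differences between -0.72 and -0.41, levels between -0.19 and 4.29, and gaps between 0.06 and 0.39.

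**Figure D2:**
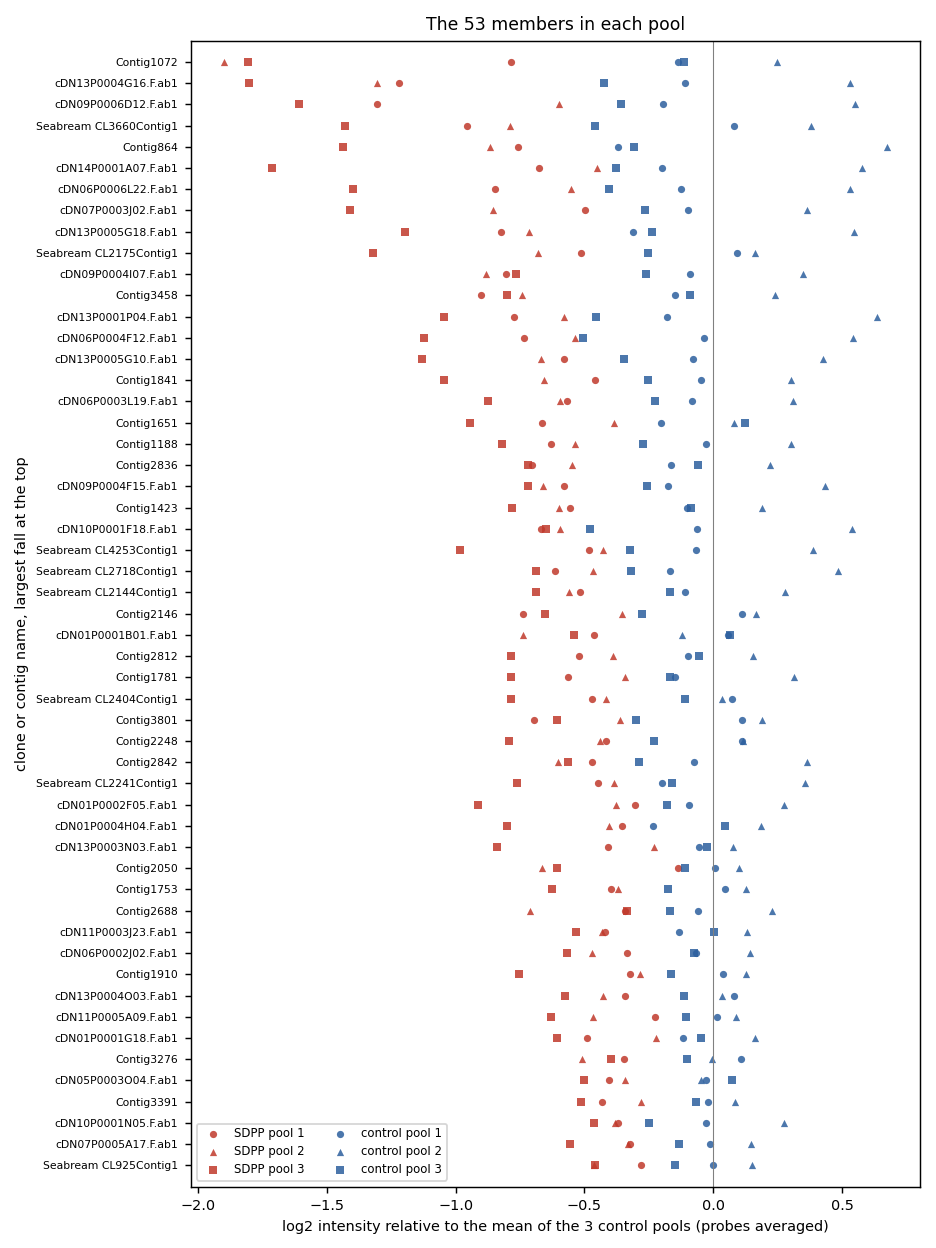
Log2 signal of each of the 53 members in the 6 pools, relative to the mean of its 3 control pools (probes averaged), with SDPP pools in red, control pools in blue and the symbol giving the pool number. Red and blue do not overlap in any row because the rule required it, the triangles of control pool 2 are the rightmost of the controls in 47 rows, and the squares of SDPP pool 3 are the leftmost in most rows.

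At the limit the members and the names left out differed little. Just inside, cDN10P0001N05.F.ab1 measured 1.76, 1.75 and 1.67 in SDPP pools, against 2.10, 2.41 and 1.88 in control pools. cDN07P0005A17.F.ab1 measured 3.42, 3.41 and 3.18 in SDPP pools and 3.73, 3.88 and 3.61 in control pools. Seabream_2006-01-03-CL925Contig1 measured 1.91, 1.72 and 1.73 in SDPP pools and 2.18, 2.34 and 2.04 in control pools. All 3 had a difference of -0.40, which for cDN10P0001N05.F.ab1 was -0.27 without control pool 2. Just outside, cDN10P0006J20.F.ab1 measured 1.63, 1.56 and 1.37 in SDPP pools and 1.98, 1.98 and 1.80 in control pools, with a difference that also rounds to -0.40. Seabream_2006-01-03-CL4188Contig1 measured 2.48, 2.33 and 2.36 in SDPP pools and 2.65, 2.99 and 2.71 in control pools. Seabream_2006-01-03-CL1559Contig1 measured 3.98, 3.88 and 3.78 in SDPP pools and 4.15, 4.53 and 4.13 in control pools. Both had a difference of -0.39, and their pools did not overlap either.

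The members shared more than their direction: after the centring of each array, the same pools were high and low in most of them. Over the 53 names the median signal was 1.64, 1.57 and 1.19 in SDPP pools 1 to 3, against 2.03, 2.20 and 1.88 in control pools 1 to 3. Over all 1961 names it was 1.43, 1.42 and 1.42 in SDPP pools and 1.40, 1.39 and 1.38 in control pools, after the centring of each array. Control pool 2 was the highest control in 47 of the 53 members (88.7%), against 47.4% of the 1961 names. SDPP pool 3 was the lowest SDPP pool in 41 (77.4%), against 44.5% of the 1961 names. Both held at once, as the extremes of all 6 pools, in 37 members (69.8%) and in 18.4% of the 1961 names. Since the rule asks for high control and low SDPP values, this excess is in part built into the choice and is given as a description. The pool order also mirrored the 75th percentile that centred each array. This percentile was lowest in control pool 2 (1419 intensity units) and highest in control pool 3 (2475). Among the SDPP pools it was highest in pool 3 (2345). Before the centring, control pool 3 and not control pool 2 had the highest control intensity in most members. In Contig1423, for example, the intensities of control pools 1 to 3 were 49522, 48184 and 69417. The order of the control pools thus holds for the centred signal only. The part of the centring in the pool order was not tested.

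On the centred signal the members also separated the control pools from each other. Control pool 3 was the lowest control in 38 members (71.7%), against 46.4% of the 1961 names, and lay a median of 0.17 below the control mean, while control pool 2 lay 0.24 above it. For the 1961 names these medians were -0.05 and 0.04. Within the SDPP group, pool 3 deviated by a median of -0.19 in the members and -0.04 in the 1961 names, while pools 1 and 2 shared the highest place in 25 and 26 members. The spread among SDPP pools (median SD 0.20) and that among control pools (median SD 0.24) were both wider than over the 1961 names, where they were 0.14 in SDPP and 0.16 in control.

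**Figure D3:**
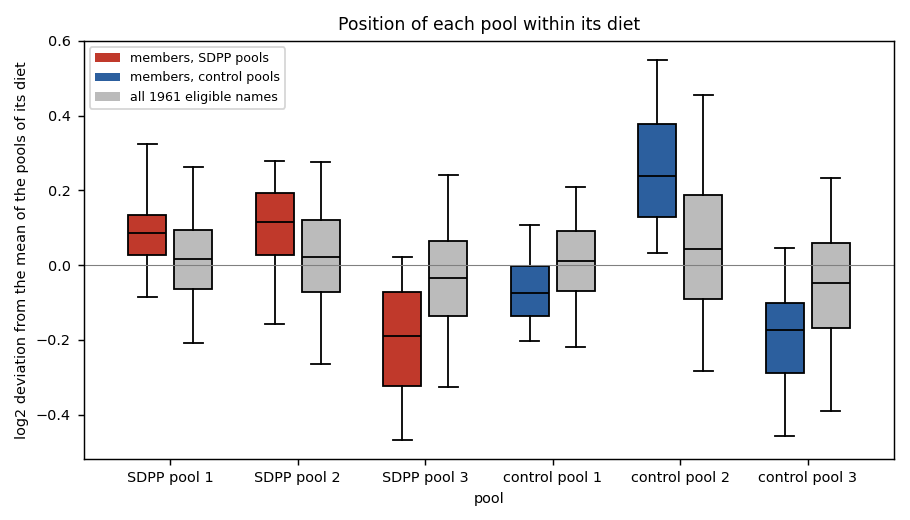
Deviation of each pool from the mean of the 3 pools of its diet (log2), as boxes with the median and quartiles and whiskers at the 5th and 95th percentiles, for the members (red in SDPP pools, blue in control pools) and for all 1961 names (grey). The members' median lies at -0.19 in SDPP pool 3 and at 0.24 in control pool 2, farther from 0 than the grey medians of -0.04 and 0.04.

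The share of the difference that rested on single pools was largest for control pool 2. Without control pool 2 the members' median difference was -0.46 and 37 of the 53 still reached -0.4. Applied anew without it, the rule picked 63 of the 2520 names that then had at least 2 well-detected probes. Those 37 were the members among the 63. Without SDPP pool 3 the median difference was -0.54, and the rule picked 46 of 1969 such names, 40 of them members. When control pool 3 was left out it picked 197 of 1961 such names, 52 of them members. Without SDPP pool 2 it picked 121 of 1963 (49 members) and without SDPP pool 1 it picked 92 of 1977 (51 members). Pools of 2 against 3 avoid overlap more easily than 3 against 3, so these counts are not on the same footing as the 53. With each pool left out in turn, 30 of the 53 members met the rule each time. That all 53 stayed lower was fixed by the rule, since no SDPP pool of a member overlapped a control pool. For the same reason the selected probes could not come to overlap, so leaving out a pool retested little beyond the limit of -0.4.

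One slide held arrays of both diets, SDPP pool 3 and control pool 1, and allowed a comparison within a slide, though not within a position. There the members' median difference was -0.68 (range -1.69 to -0.27), against -0.03 over the 1961 names, and 51 of the 53 reached -0.4. Both arrays were among those that chose the members, so a lower value in SDPP pool 3 was built into the rule. The pair has 1 array per diet and includes the lowest SDPP pool.

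RNA of known amount that was added to every pool before labelling moved in part with the members. The mean signal of the 6 brightest spike-in probes was 4.13, 4.34 and 3.89 in SDPP pools 1 to 3, against 4.33, 4.53 and 4.04 in control pools 1 to 3, a difference of -0.18. As in the members, the lowest SDPP pool was pool 3 and the highest control was pool 2, but the spike-in values of the diets overlapped. Within each diet the spike-in values ran in the reverse order of the 75th percentile that centred the arrays. They therefore carry that centring, and do not by themselves show a difference in the added RNA. The part of the spike-ins in the result was not tested. When the arrays were scaled to these spike-ins, a choice made after seeing the data, the members' median difference was -0.40, the median over the 1961 names was 0.18, and 32 names met the rule, 23 of them members. Without any scaling between arrays these medians were close to those with spike-in scaling, at -0.39 over the members and 0.19 over the 1961 names. Either choice moves all names of an array alike and so leaves the distance between the members and the other names as it was.

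The probes of a name gave much the same fall. The 53 members had 152 well-detected probes, 3 in 44 names, 2 in 8 names and 4 in 1 name. Single-probe differences ran from -1.97 to -0.30, and 140 of the 152 were at most -0.4. Within a name they lay a median of 0.10 apart, and less than 0.1 apart in 27 members, although the signal level of probes of the same name differed by a median of 0.34 and by up to 2.29. The rule asked every well-detected probe for the same direction and their mean for at most -0.4. The shared direction, and in part the count of 140, were therefore built into the choice. The spread between probes of the other names is not given here. All probes of a name report the same pools, so their agreement in size speaks to the probes and not to the fish.

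In 3 members the probes differed by more than 0.3. The widest was cDN07P0003J02.F.ab1, where one probe measured 1.31, 0.57 and -0.61 in SDPP pools, against 1.83, 2.41 and 1.65 in control pools (difference -1.54). Its other well-detected probe measured 1.20, 1.24 and 1.30 in SDPP pools and 1.48, 1.83 and 1.33 in control pools (difference -0.30). A further probe of this name, not well above background on all arrays, had a difference of -0.11 with overlapping pools. The low value of SDPP pool 3 thus appeared on the first of these probes alone.
Contig1072 had differences of -1.97 and -1.03 on its probes, and cDN01P0001B01.F.ab1 had -0.80 and -0.36. In every one of these 3 names the well-detected probes shared the direction, which the rule required, but not the size.

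**Figure D4:**
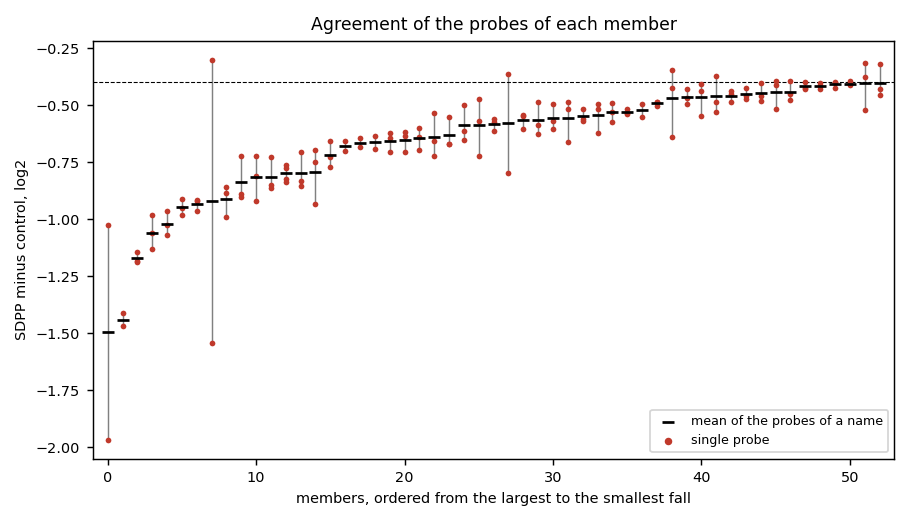
Difference between diets (SDPP minus control, log2) of each well-detected probe (red points) and their mean (black bars) for the 53 members, ordered from the deepest to the smallest fall, with the limit of -0.4 dashed. The grey lines join the probes of a name and are short in most members, with the longest at Contig1072 (-1.97 to -1.03) and cDN07P0003J02.F.ab1 (-1.54 to -0.30).

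The array carried 159 probes for the member names, and 7 probes of 7 names were not well above background on all arrays. All 7 were lower in SDPP, with differences of -1.46 to -0.11, and in 2 of them the pools did not overlap. Among all 20755 probes that were not well detected on all arrays, 71.4% were lower in SDPP and 4.79% had every SDPP pool below every control pool, so a lower value on such dim probes was common on the array. The 7 probes hybridized to the same pools as the others. The 1 with the deepest fall was the last probe of Contig1072, at -1.77, -1.81 and -2.04 in SDPP pools, against -0.40, -0.15 and -0.71 in control pools. On this name all 3 probes therefore had every SDPP pool below every control pool.

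Spots printed more than once gave the noise within an array, which leaves out labelling, hybridization, slide and position. Most member probes, 112 of 152, had a single spot, 39 had 2 and 1 had 15. Where both spots of a pair were kept on all arrays (34 probes), they differed by a median of 0.11, which corresponds to an SD of 0.11 for a single spot. The median SD between pools was 0.21 over all 39 probes with 2 spots. Those pool values average up to 2 spots, so these SDs are not on the same footing. In 25 of the 34 probes every SDPP spot lay below every control spot. All 34 were chosen for pool means that did not overlap, so this count is in part built into the rule. The probe with 15 spots belonged to cDN13P0001P04.F.ab1 and averaged 4.78, 4.94 and 4.43 in SDPP pools, against 5.33, 6.22 and 5.11 in control pools, with an SD among spots of 0.05 to 0.10 on any array. The ranges of the spots overlapped between SDPP pools 1 and 2 and between control pools 1 and 3. Its highest SDPP spot, 5.04 in pool 2, was above its lowest control spot, 4.93 in pool 3.

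Members were found at all signal levels. Split by signal level into 5 equal groups, the 1961 names held 13, 4, 12, 12 and 12 members from the dimmest group to the brightest, or 3.31%, 1.02%, 3.06%, 3.06% and 3.06% of each. The median difference of all names in these groups was -0.02, 0.04, 0.04, 0.05 and -0.09, so the brightest group as a whole lay slightly lower in SDPP. Only 3 members had a level under the 75th percentile of the array, and 10 had a pool within 1 log2 unit of the dimmest spot called well above background on its array. By place on the array, between 2.13% and 3.30% of the spots in each of 4 equal blocks belonged to members, where the denominator is the spots of the 1961 names.

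The names differed by origin. Names that begin with cDN, whose form is that of a clone library, a plate, a well and a read, gave 25 of the 53 members, or 5.26% of the 475 such names with at least 2 well-detected probes. The other 1486 names gave 28 members (1.88%). Among these, names of the form Contig gave 20 of 842 (2.38%) and those of the form Seabream 8 of 591 (1.35%). The cDN names had members in 9 of 14 clone libraries. Library 13 stood highest with 6 of 41 names (14.6%), followed by library 01 with 4 of 44 (9.09%) and library 06 with 4 of 45 (8.89%). By the rule turned round, names higher in SDPP made up 4.63% of the cDN names and 5.11% of the others. The tissue or treatment behind each clone library was not used here, and members from one library may share sequence, so they were not counted as independent.

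Membership depended on how the arrays were processed. All 53 stayed lower in SDPP under the 6 alternatives planned for the processing and under both scalings added later. Median normalization and the scalings added later shift all names alike by less than the limit of -0.4, so there the direction could hardly change. The other alternatives moved names unequally. With normexp background correction, for example, the difference of Contig1072 was -1.10. Scaling each array to its median in place of the 75th percentile left 21 of the 53, and raised the median over the 1961 names to 0.09. Starting from the deposited log2 table left 26 of the 53 and normexp background correction left 31. Quantile normalization kept 49. Keeping the spots flagged as outliers left 52, and taking medians over spots and probes left all 53. Under these 6 alternatives, which leave out the scalings added later, 15 members met the rule each time. Of these, 14 also met it with each pool left out, which retested little beyond the limit of -0.4.

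These 14 include the 5 members with at least a 2-fold fall, Contig1072, cDN13P0004G16.F.ab1, cDN09P0006D12.F.ab1, Seabream_2006-01-03-CL3660Contig1 and Contig864. Also among them were cDN13P0005G18.F.ab1, cDN09P0004I07.F.ab1, Contig1188 and Contig1423, described above, and a further 5 with smaller falls. Contig1841 measured 1.79, 1.59 and 1.20 in SDPP pools, against 2.20, 2.55 and 1.99 in control pools (difference -0.72). Contig2836 measured 2.06, 2.22 and 2.05 in SDPP pools and 2.60, 2.99 and 2.71 in control pools (difference -0.66). Control pool 2 was again the highest in both. cDN09P0004F15.F.ab1 measured 0.91, 0.82 and 0.77 in SDPP pools and 1.31, 1.92 and 1.23 in control pools (difference -0.65). Seabream_2006-01-03-CL2144Contig1 measured 3.23, 3.18 and 3.05 in SDPP pools and 3.63, 4.02 and 3.57 in control pools (difference -0.59). Contig2812 measured 0.12, 0.25 and -0.14 in SDPP pools and 0.54, 0.80 and 0.59 in control pools (difference -0.56). These 5 were singled out after their values were seen, and their gaps, 0.20 to 0.39, were all within the range of the other members. By contrast Contig3458, with a wide gap in the reported setting, fell out of the set when spots flagged as outliers were kept, with a difference of -0.53. Of the 14, those that also met the rule under both scalings added later were cDN13P0004G16.F.ab1, cDN09P0006D12.F.ab1, Seabream_2006-01-03-CL3660Contig1, cDN13P0005G18.F.ab1 and Contig1188. The rest of the 14 left the set without scaling between arrays, and Contig2812 also left it with spike-in scaling.

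**Figure D5:**
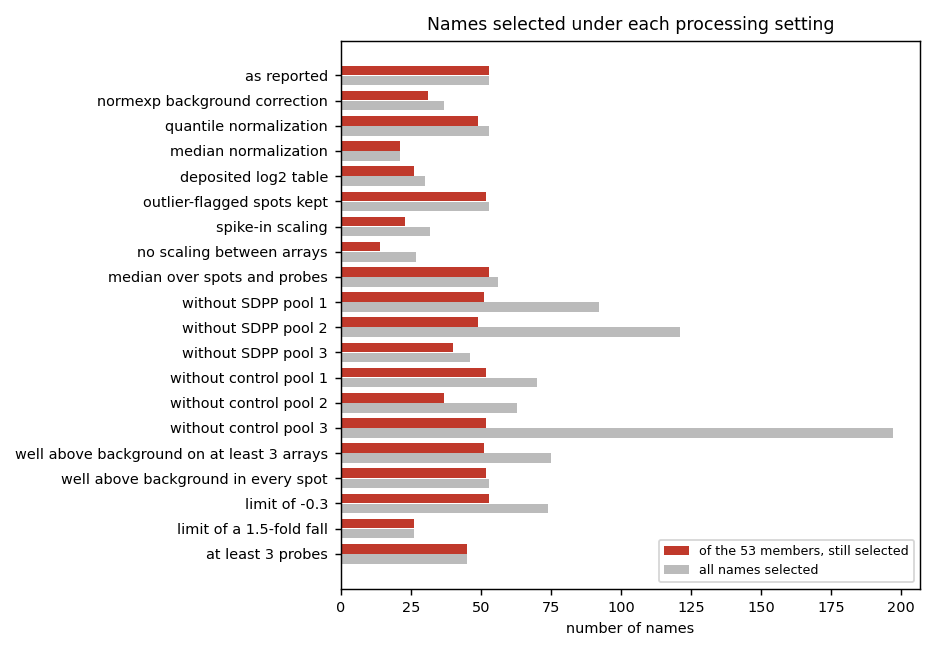
Number of names selected under each processing setting (grey bars) and how many of the 53 members are among them (red bars), with the reported setting at the top. Median normalization, the deposited log2 table and both scalings chosen after seeing the data leave 14 to 26 members, and leaving out control pool 3 lets in the most names (197).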

How the data were processed

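Skin RNA of 3 SDPP pools and 3 control pools was measured on 6 single-colour arrays, grouped by the sample labels. The authors deposited spot intensities from Feature Extraction (version 10.7.3.1 and scanner G2505C per the file headers; the methods name others), corrected for background and not normalized between arrays, and a table of log2 values. The deposited log2 table equalled the log2 of the background-subtracted signal within 5e-09 and was empty for 8663 to 14733 spots per array, so it served only as an alternative. Control spots and outlier-flagged spots were left out. Here the log2 intensity was centred on the 75th percentile of each array and averaged over the spots of a probe. A probe was well detected when at least 50% of its spots carried the well above background flag on all 6 arrays, and 28793 probes of 15156 names were examined.

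Members were selected by the rule given in the report. The members, the lists and the limits were chosen with earlier results of these data known. Members named with all values were the 15 with the deepest fall, the 5 brightest, the 5 with the widest gap, and 3 names on each side of the limit. Another 5 members were added after their values were seen. Gene lists and cell type markers could not be applied, since 0 names matched the reference table (assembly fSpaAur1.1). The fit over all probes used limma 3.58.1 in R 4.3.3, checked on simulated data, and other steps used Python 3.11.15. With 3 arrays per diet their number limits the precision. Alternatives were other background corrections, normalizations, detection limits, size limits and tests, the pool number as a block, the slide and each pool left out. Scaling to spike-in probes and no scaling were added after seeing the data. The p-values set the difference between diets against the spread between pools. That difference also carries the array position, which went with diet.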

Additional observations from a re-analysis of the deposited data

How the results depend on the processing

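The number of names that met the rule, 53 as reported, was 21 with median normalization, 30 from the deposited log2 table and 26 with a limit of a 1.5-fold fall. With the scalings chosen after seeing the data it was 32 (spike-in probes) and 27 (no scaling between arrays), with a median difference of -0.40 and -0.39 over the 53 members and of 0.18 and 0.19 over the 1961 names. Leaving out each pool in turn gave 46 to 197 names, out of 1961 to 2520 with at least 2 well-detected probes. The median difference over the 53 members was then -0.69 to -0.46. Probes lower in SDPP at an unadjusted limma p of 0.05, 950 as reported, numbered 499 with median normalization, 566 from the deposited log2 table and 513 to 1211 with each pool left out (513 without SDPP pool 3, 521 without control pool 1). In the same fits 0 to 1 probes passed the adjusted threshold, the 1 appearing without control pool 2. Median normalization also moved the split at the unadjusted level to 499 lower and 1644 higher probes, against 950 lower and 970 higher as reported. Quantile normalization gave 870 lower and 1014 higher. The lower side was the larger with normexp background correction (780 against 688), from the deposited log2 table (566 against 488) and without a detection filter (864 against 460). It was also the larger with detection asked on all 6 arrays, with outlier-flagged spots kept, and with the pool number as a block. The same held without SDPP pool 2 and without control pool 3. In the remaining fits the higher side was the larger. The other alternatives that were run kept the number of names, the median difference and the number of probes within 1.5 times the reported values. The cause of these changes was not tested.

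Whether the pool numbers pair the pools could not be decided. The deviations of same-numbered pools from their diet means correlated across probes with r of -0.06, 0.25 and 0.19. SDPP pools 2 and 3 correlated best with the control pool of their own number, and SDPP pool 1 did not. Deviations from a mean of 3 pools are tied to each other, which limits what these values can show. The control files carry other numbers than the labels, which were followed here, so the numbering is itself in doubt. With the pool number as a replicate block, limma called 1177 probes lower and 865 higher at the unadjusted level and 0 after adjustment, and the members' differences were the same by construction. The fit with slide as a random block was not run, because its correlation could not be estimated from 1 slide with 2 arrays.

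Depth is not recorded on arrays. Signal over background limited Contig1072 most, and 2473 names with a single well-detected probe, of which 221 otherwise met the rule, were outside the choice. The 3 pools of a diet cannot show variation between fish or tanks.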
